A study of Homo sapiens with 18 samples.

Results

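The genes described are 10 genes of bone morphogenetic protein (BMP) signalling: the inhibitors of DNA binding ID1, ID2, ID3 and ID4, the intracellular inhibitors SMAD6 and SMAD7, the membrane inhibitor BAMBI, the secreted antagonist GREM1, and the ligands BMP4 and BMP7. They were chosen by symbol, with their difference between days already known, and all 10 were found among the 26372 genes of the expression table. A linear model was fitted to the 13785 genes whose mean was at least 1 FPKM (sequenced fragments normalized by both transcript length and library size) over all libraries. Of the 10 members, 9 passed this filter and BMP4 did not. ID1, ID4, SMAD6 and GREM1 passed through their day 0 values and BMP7 through its day 18 values.

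RNA-seq was done in SH-SY5Y, an established human neuroblastoma line capable of neuronal differentiation, that had received ZNHIT3 on a lentivirus. ZNHIT3 is a protein that takes part in the assembly of small nucleolar ribonucleoproteins. The 3 constructs, built in the FUGW lentiviral vector, encoded either unaltered ZNHIT3 (called WT), ZNHIT3 with the substitution C14R, or ZNHIT3 with a deletion. Each construct was measured at day 0 and day 18 with 3 libraries, which gave 6 groups and 18 libraries. All groups therefore carried a lentiviral ZNHIT3 construct, and none was untreated. The deletion was labelled 251-254 in replicate 1, 251-255 in replicate 2 and 251-256 in replicate 3, and as depleted in the sample names, so the 3 deletion libraries of a day are treated here as 1 group on the strength of those names. Cells were grown in medium with 15% fetal bovine serum, infected a day after plating and, 48 hours later, moved for 18 days to serum-free neurobasal/B27 medium with BDNF at 50 ng/ml, retinoic acid at 10 µM, dibutyryl cyclic AMP at 2 mM and KCl at 20 mM. The medium of the day 0 cells is not given in the sources used here. Time in culture differs between the days, and the medium may differ too. The parts of serum, the added factors and time cannot be told apart. No label says that replicates were separate cultures, so p-values measure only the spread between these libraries.

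BMPs bind paired receptor kinases at the cell surface, which phosphorylate SMAD1, SMAD5 and SMAD9. These enter the nucleus with SMAD4 and bind DNA at GC-rich elements and at the short SMAD box. The ID genes are among the best-known direct targets. ID proteins pair with E proteins and keep them from pairing with the basic helix-loop-helix factors that drive neuronal genes. SMAD6, SMAD7 and BAMBI are themselves induced by the pathway and damp it, and GREM1 binds BMPs outside the cell. In the sympathetic lineage, from which neuroblastoma arises, BMPs help to set the autonomic fate of neural crest cells.

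The sequences before the annotated starts are shown because the members share this pathway and differ in the elements they carry there. They are RefSeq sequences on GRCh38.p14, where 9 of the 10 members, all but BMP7, matched 14 starts, and the 250 bases before each start were searched. The motifs were GGCGCC, a GC-rich SMAD element, GTCTAGAC, a palindrome of the SMAD box, and the SMAD box CAGAC, read on both strands (GTCTG on the other). Positions are counted backwards from -1, the base before the start, all 4 stretches are on the + strand, and capitals mark the motifs. No match overlapped another. The stretches run past the first start that GENCODE 29 gives, by 6 bases in ID1, 8 in SMAD6, 4 in BAMBI and 30 in GREM1. The last GGCGCC of BAMBI and the GTCTAGAC of SMAD6 therefore straddle that start.
ID1, chr20:31605039-31605288: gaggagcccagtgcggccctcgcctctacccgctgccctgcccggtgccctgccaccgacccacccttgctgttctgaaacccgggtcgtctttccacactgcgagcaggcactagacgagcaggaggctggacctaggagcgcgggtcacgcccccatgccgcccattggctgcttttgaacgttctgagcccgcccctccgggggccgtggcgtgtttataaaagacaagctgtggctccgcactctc
SMAD6, chr15:66701986-66702235: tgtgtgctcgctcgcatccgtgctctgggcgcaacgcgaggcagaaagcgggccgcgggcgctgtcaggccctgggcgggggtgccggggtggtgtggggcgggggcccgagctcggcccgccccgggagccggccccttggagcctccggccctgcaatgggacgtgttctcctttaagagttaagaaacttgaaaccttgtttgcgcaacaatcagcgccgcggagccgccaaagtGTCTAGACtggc
BAMBI, chr10:28677271-28677345: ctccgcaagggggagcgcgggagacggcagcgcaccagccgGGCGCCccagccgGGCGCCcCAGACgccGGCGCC
GREM1, chr15:32717754-32718003: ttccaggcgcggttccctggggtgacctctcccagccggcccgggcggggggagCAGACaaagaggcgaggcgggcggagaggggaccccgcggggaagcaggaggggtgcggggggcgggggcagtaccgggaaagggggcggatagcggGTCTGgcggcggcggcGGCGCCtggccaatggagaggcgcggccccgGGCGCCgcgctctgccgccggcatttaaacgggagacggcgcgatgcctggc

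SMAD6 held GTCTAGAC at -12 to -5, a run found before 64 of 35116 starts (0.182%). BAMBI held GGCGCC at -209 to -204, -196 to -191 and -181 to -176, CAGAC at -189 to -185, and GTCTG at -140 to -136, beyond the stretch printed. GREM1 held GGCGCC at -83 to -78 and at -52 to -47 before the first of its 2 starts, with CAGAC at -196 to -192 and GTCTG at -99 to -95, and GTCTG at -121 to -117 before the second. SMAD7 held CAGAC at -217 to -213 and -128 to -124 before the first of its 3 starts and GTCTG at -193 to -189 before the second. BMP4 held GGCGCC at -232 to -227 and GTCTG at -181 to -177 before the first of its 3 starts, and GTCTG at -46 to -42 before the third. ID3 and ID4 each held 1 CAGAC, at -147 to -143 and -205 to -201, and neither ID1 nor ID2 held any of the 3 motifs. GGCGCC was found before 16.4% of all starts and the SMAD box before 38%, so single matches are common. A missing match says only that these letters are not in this window.

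The 10 members lie at separate loci. In GENCODE 29 on GRCh38, ID1 (chromosome 20, 31605283 to 31606515, + strand) and BMP7 (chromosome 20, 57168748 to 57266629, - strand) share a chromosome, as do SMAD6 (chromosome 15, 66702228 to 66782848, +) and GREM1 (chromosome 15, 32717974 to 32745107, +). ID2 (chromosome 2, 8678845 to 8684453, +), ID3 (chromosome 1, 23557918 to 23559794, -), ID4 (chromosome 6, 19837386 to 19840684, +), SMAD7 (chromosome 18, 48919853 to 48952052, -), BAMBI (chromosome 10, 28677342 to 28682939, +) and BMP4 (chromosome 14, 53949736 to 53958761, -) are each alone. Exons of ID2 share 38 bases with the antisense gene ID2-AS1, and exons of GREM1 share 188 bases with the noncoding RNA AC090877.2 on the other strand. Whether counting used the strand is not given in the sources used here, so reads in those bases cannot be assigned.

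ZNHIT3 was expressed in all libraries, and its values in the 3 constructs did not overlap at either day. At day 0 it stood at 538 ± 6.33 FPKM in WT, 424 ± 7.09 in C14R and 303 ± 9.40 in the deletion (SD, n = 3 here and throughout), and at day 18 at 1153 ± 46.1, 653 ± 88.9 and 302 ± 9.89. FPKM per symbol do not separate the delivered from the endogenous transcript. Absolute depth is unknown. From the steps of low values, relative depth ran from 59.1% to 84.6% of the deepest library at day 0 and from 82.0% to 100% at day 18. Pearson correlations of log2 values across genes were 0.984 to 0.994 within groups, 0.981 to 0.994 between constructs of a day and 0.870 to 0.891 between days. The small RNA SNORD3A took 52.9% and 57.3% of the FPKM sum in C14R replicates 1 and 3, 58.6% in WT replicate 1 and 51.5% in deletion replicate 1 of day 0, but 6.87% to 18.6% in the other 5 day 0 libraries. Its share at day 18 was 1.01% in C14R replicate 1 and 3.83% to 15.1% in the others. The line's sympathetic identity was visible at both days: 7 of 8 sympathetic neuroblast markers, DBH among them, had means above 1 FPKM in every group, whereas TH, which makes the precursor of catecholamines, stayed near 0 (0.0406 ± 0.0402 in WT at day 0, 0.535 ± 0.287 at day 18).

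**Figure D1:**
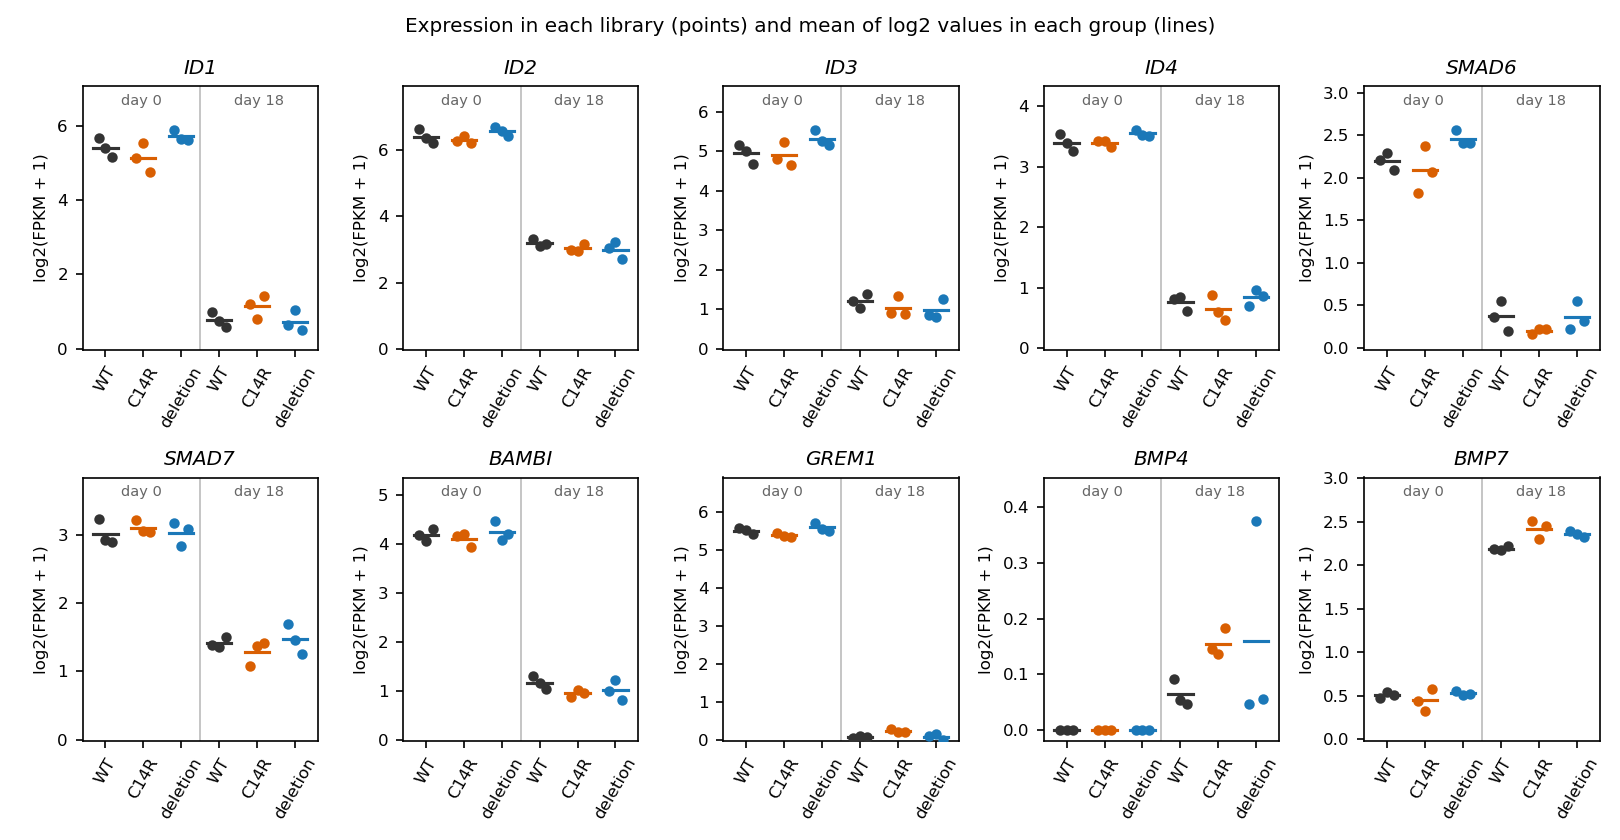
Expression of the 10 members in each of the 18 libraries as log2(FPKM + 1) on the vertical axis, by construct and day on the horizontal axis; points are libraries and lines are group means of the log2 values. ID1 to ID4, SMAD6, SMAD7, BAMBI and GREM1 lie lower in all 9 day 18 libraries than in all 9 day 0 libraries, and BMP4 and BMP7 lie higher.

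Between day 0 and day 18 the 4 ID genes, SMAD6, SMAD7, BAMBI and GREM1 were all lower, and the 2 ligands were higher, in each of the 3 lines. Because the members were chosen on this difference, it is described without a test. In WT, all 8 lower members differed by at least 1 on the log2(FPKM + 1) scale, as did 6.86% of all genes tested, and BMP7 was higher by at least that much, as were 7.29%. The median log2 difference of the 9 members was -3.01 in WT, beside 0.03 for all genes tested. All 9 had groups that did not overlap, as had 36% of genes in the lower direction and 39.7% in the higher direction in WT, 34.5% and 37.3% in C14R, and 36.8% and 40.9% in the deletion. In bulk RNA, fewer cells of a type and less RNA per cell cannot be told apart.

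ID1, an inhibitor of basic helix-loop-helix factors, went from above 25 FPKM in each library to below 2. Its day 0 values in replicates 1 to 3 were 49.9, 41.1 and 34.7 FPKM in WT, 34.3, 45.0 and 25.9 in C14R, and 57.6, 48.7 and 48.2 in the deletion. Its day 18 values were 0.973, 0.678 and 0.490 in WT, 1.32, 0.755 and 1.67 in C14R, and 0.552, 1.08 and 0.416 in the deletion. The highest day 18 library, C14R replicate 3, was far below the lowest at day 0, C14R replicate 3. The ratio of means was 58.7-fold lower in WT, 28.1-fold in C14R and 75.6-fold in the deletion. On the log2(FPKM + 1) scale the differences were -4.64 (SE 0.20), -3.99 and -4.98, and 9 genes of the 13785 had a more negative difference in WT.

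ID2 had the highest level of the 10 members in every group. It was measured at 97.7, 81.4 and 72.5 FPKM in WT, 75.8, 85.2 and 73.1 in C14R, and 103, 93.8 and 84.4 in the deletion at day 0. At day 18 it was still at 9.03, 7.62 and 7.92 in WT, 6.88, 6.78 and 8.06 in C14R, and 7.18, 8.27 and 5.50 in the deletion. ID2 thus kept the most transcript of the 4 ID genes in WT, both in level and as a share, 9.77% of its day 0 mean. The other ID genes kept 1.70% (ID1), 4.39% (ID3) and 7.32% (ID4). The log2 difference of ID2 was -3.20 (SE 0.12) in WT, -3.26 in C14R and -3.58 in the deletion.

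ID3 lay between ID1 and ID2 in the size of its difference. Day 0 values were 35.0, 31.0 and 24.6 FPKM in WT, 27.0, 36.6 and 24.1 in C14R, and 45.8, 37.3 and 34.6 in the deletion. Day 18 values were 1.31, 1.06 and 1.62 in WT, 0.866, 1.52 and 0.831 in C14R, and 0.809, 0.734 and 1.41 in the deletion. Every day 18 library was thus under 2 FPKM. The ratio of means was 22.8-fold lower in WT (log2 difference -3.74, SE 0.17), 27.3-fold in C14R (-3.86) and 39.9-fold in the deletion (-4.35).

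ID4, which can also restrain the other ID proteins, had the tightest day 0 values of the family. They were 10.6, 9.47 and 8.64 FPKM in WT, 9.71, 9.76 and 9.01 in C14R, and 11.2, 10.6 and 10.4 in the deletion. At day 18 they were 0.758, 0.808 and 0.536 in WT, 0.834, 0.514 and 0.379 in C14R, and 0.633, 0.943 and 0.814 in the deletion. No day 18 library reached 1 FPKM. The log2 differences of -2.64 (SE 0.10), -2.74 and -2.71 were close to each other across the 3 lines.

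SMAD6 competes with SMAD4 for activated SMAD1 and is the inhibitor most tied to BMP signals. It was the lowest of the 8 genes that were lower at day 18 already at day 0, at 3.64, 3.92 and 3.27 FPKM in WT, 2.55, 4.18 and 3.19 in C14R, and 4.90, 4.30 and 4.32 in the deletion. At day 18 it was at 0.290, 0.466 and 0.145 in WT, 0.118, 0.165 and 0.169 in C14R, and 0.165, 0.470 and 0.244 in the deletion. The C14R libraries of day 18 spanned a narrower range than the other groups. The ratio of means was 12.0-fold lower in WT, 22.0-fold in C14R and 15.4-fold in the deletion, and the log2 differences were -1.83 (SE 0.13), -1.89 and -2.10.

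SMAD7 blocks both BMP and TGF-beta receptors and brings ubiquitin ligases to them. It had the smallest difference of the 8: day 0 values were 8.37, 6.55 and 6.42 FPKM in WT, 8.29, 7.28 and 7.19 in C14R, and 8.01, 6.13 and 7.48 in the deletion. At day 18 they were 1.62, 1.56 and 1.84 in WT, 1.12, 1.58 and 1.67 in C14R, and 2.23, 1.75 and 1.38 in the deletion. It kept 23.6% of its day 0 mean in WT, more than SMAD6 (8.33%) or BAMBI (7.30%). The log2 differences were -1.59 (SE 0.13) in WT, -1.81 in C14R and -1.56 in the deletion.

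BAMBI is a membrane protein built like a type I receptor without the kinase. It was measured at 17.3, 15.7 and 18.7 FPKM in WT, 16.9, 17.6 and 14.3 in C14R, and 21.3, 16.1 and 17.4 in the deletion at day 0. At day 18 it was at 1.48, 1.23 and 1.06 in WT, 0.855, 1.03 and 0.956 in C14R, and 0.997, 1.34 and 0.764 in the deletion. All 9 day 0 libraries lay above all 9 day 18 libraries. The ratio of means was 13.7-fold lower in WT (log2 difference -3.01, SE 0.12), 17.2-fold in C14R (-3.15) and 17.7-fold in the deletion (-3.24).

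GREM1, a secreted antagonist that binds BMP2, BMP4 and BMP7, had the most negative log2 difference of the members. It stood at 46.4, 45.1 and 41.2 FPKM in WT, 42.0, 40.3 and 39.0 in C14R, and 51.2, 46.0 and 44.0 in the deletion at day 0. At day 18 it was at 0.0377, 0.0902 and 0.0644 in WT, 0.224, 0.156 and 0.173 in C14R, and 0.0780 and 0.116 in the deletion, where replicate 3 was listed at 0. GREM1 in WT thus went from a level near that of ID1 to a level near that of BMP4. What remained was 0.145% of the day 0 mean in WT, 0.456% in C14R and 0.137% in the deletion. Ratios from such low values are imprecise: 690.3-fold lower in WT, 219-fold in C14R and 727-fold in the deletion. The log2 differences were -5.41 (SE 0.07), -5.13 and -5.50. In WT, 2 genes of the 13785 had a more negative difference.

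BMP7, a ligand of the pathway, moved the other way. At day 0 it was at 0.390, 0.457 and 0.426 FPKM in WT, 0.352, 0.254 and 0.498 in C14R, and 0.470, 0.426 and 0.431 in the deletion. At day 18 it was at 3.53, 3.51 and 3.65 in WT, 4.67, 3.93 and 4.46 in C14R, and 4.23, 4.12 and 4.01 in the deletion. The days did not overlap in any line. The ratio of means was 8.39-fold higher in WT (log2 difference 1.68, SE 0.08), 11.8-fold in C14R (1.97) and 9.31-fold in the deletion (1.83).

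BMP4, the other ligand, was listed at 0 in all 9 day 0 libraries. At day 18 it was at 0.0656, 0.0383 and 0.0329 FPKM in WT, 0.106, 0.0991 and 0.136 in C14R, and 0.0330, 0.297 and 0.0400 in the deletion. All 9 day 18 libraries held some signal, but the highest, deletion replicate 2, was still below 0.3 FPKM. No fold is given against values listed at 0, and most day 18 libraries were deeper than those of day 0.

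**Figure D2:**
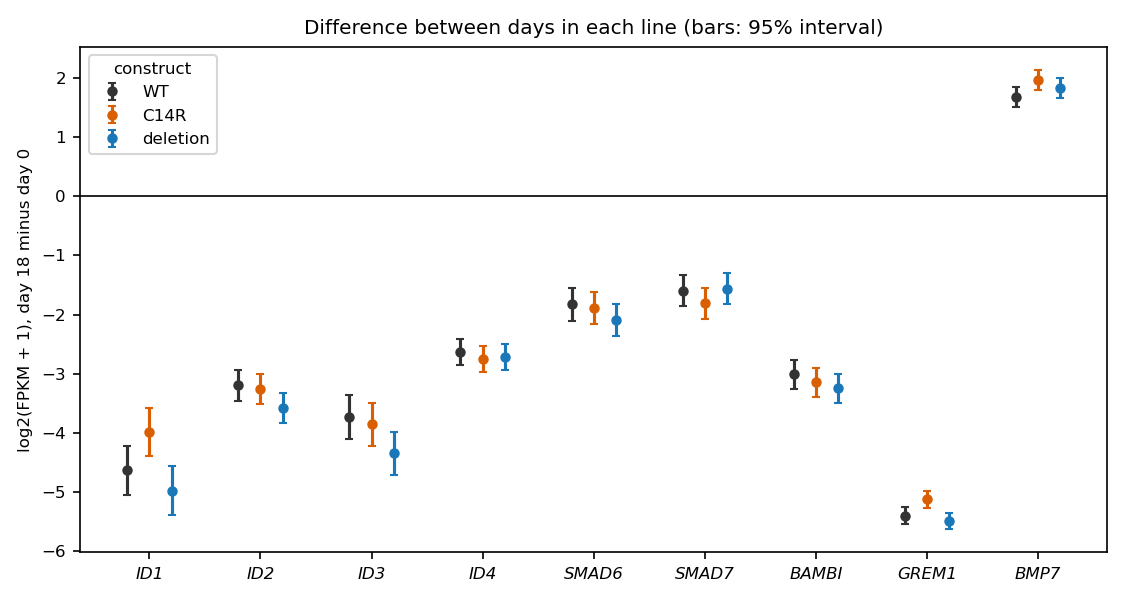
Difference in log2(FPKM + 1), day 18 minus day 0, on the vertical axis for the 9 members that passed the filter, with 95% intervals from the linear model, coloured by construct. GREM1 shows the most negative values (-5.50 to -5.13), SMAD7 the least negative of the 8 lower genes (-1.81 to -1.56), and BMP7 lies above 0 in all 3 lines.

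Ranking FPKM, which are scaled to length, ordered the members at day 0 in WT as ID2 (83.8 ± 12.8), GREM1 (44.3 ± 2.68), ID1 (41.9 ± 7.61), ID3 (30.2 ± 5.22), BAMBI (17.2 ± 1.52), ID4 (9.57 ± 0.986), SMAD7 (7.11 ± 1.09), SMAD6 (3.61 ± 0.324), BMP7 (0.425 ± 0.0337) and BMP4 at 0. Libraries of GREM1 and ID1 overlapped, as did those of ID1 and ID3, and no other neighbours did. At day 18 the order in WT was ID2 (8.19 ± 0.746), BMP7 (3.56 ± 0.0741), SMAD7 (1.68 ± 0.145), ID3 (1.33 ± 0.280), BAMBI (1.26 ± 0.214), ID1 (0.714 ± 0.243), ID4 (0.701 ± 0.145), SMAD6 (0.301 ± 0.161), GREM1 (0.0641 ± 0.0262) and BMP4 (0.0456 ± 0.0175). Overlapping neighbours were SMAD7 and ID3, ID3 and BAMBI, ID1 and ID4, and GREM1 and BMP4. BMP7 moved from the ninth place to the second, and GREM1 from the second to the ninth. Both variant lines had ID2 first and BMP7 second at day 18 as well.

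Markers of other cell states moved with the same days. The summed FPKM of 12 mesenchymal-type neuroblastoma or fibroblast markers ran from 1096 to 1289.6 in day 0 libraries and from 170.3 to 188 at day 18. Averaged over the 9 libraries of a day, 12 of 12 were lower at day 18. PRRX1 was at 0 in the WT libraries of day 18. NOTCH3, in contrast, was at 8.22 ± 0.215 and 8.51 ± 0.442 in WT, with a limma adjusted p of 0.698. VIM, the mesenchymal intermediate filament, went from 565 ± 8.29 to 49.3 ± 1.27 FPKM in WT. The sum of 9 proliferation genes ran from 391 to 429 at day 0 and from 143 to 185 at day 18, with 9 of 9 lower. The sum of 9 neuronal markers ran from 872 to 924 at day 0 and from 1810.1 to 1986 at day 18, with 1 of 9 lower, and RBFOX3 was near 0 at both days. The 8 sympathetic neuroblast markers summed to 781 to 849 and then 1133 to 1302, with 2 of 8 lower. Schwann cell precursor markers (6 genes, FOXD3 at 0 at day 0) summed to 3.21 to 4.96 and then 8.79 to 10.7 FPKM. Endothelial markers (5 genes) summed to less than 1 FPKM in all libraries. Leukocyte markers (5 genes) summed to 5.49 to 6.99 and then 1.10 to 2.45, most of it CD68, with CD3E at 0 in 5 of 6 groups. The part of the mesenchymal-type and proliferation markers in the members' day difference was not tested.

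**Figure D3:**
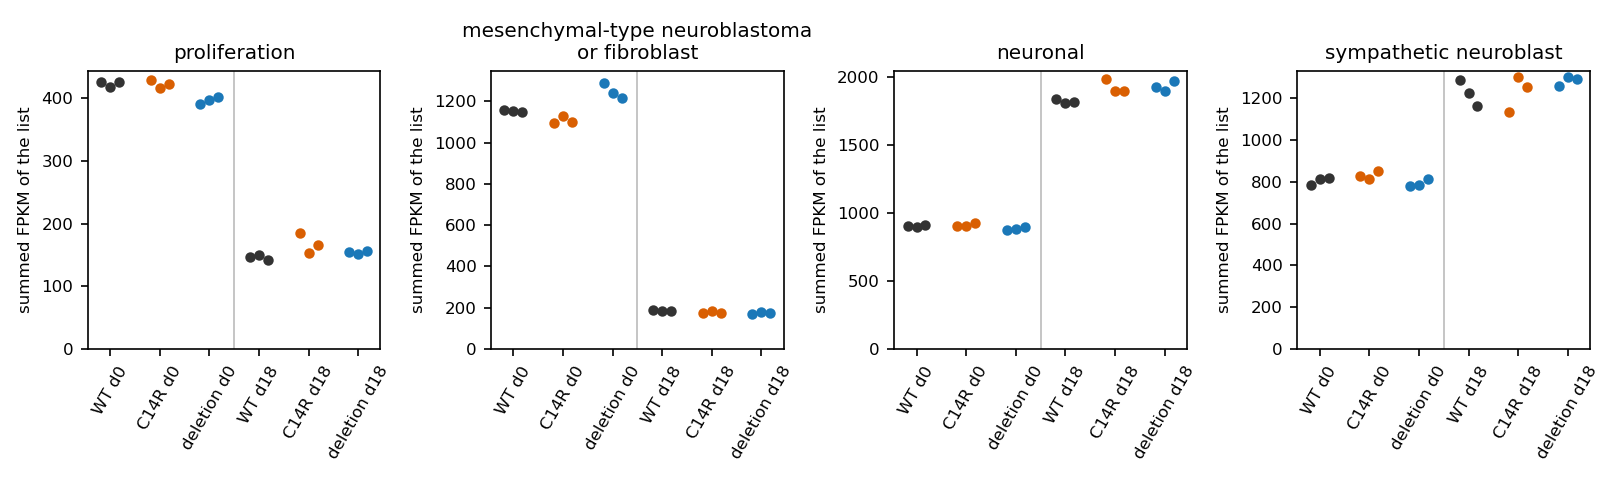
Summed FPKM of 4 marker lists on the vertical axis in each of the 18 libraries, by construct and day on the horizontal axis. The proliferation and mesenchymal-type sums are lower at day 18 and the neuronal and sympathetic sums higher; at day 0 the mesenchymal-type sums of the 3 constructs do not overlap.

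Between constructs, no member passed the threshold. The members are not known to have been chosen on these comparisons, but they were chosen with earlier results of these data known. The comparison of the deletion with C14R was added after values were seen. With limma, an adjusted p under 0.05 was reached by 0 of 9 members and 0% of all genes tested for C14R against WT at day 0, by 0 members and 0.029% of genes for the deletion against WT at day 0, by 0 and 0.0363% for C14R against WT at day 18, and by 0 and 0.0725% for the deletion against WT at day 18. For the deletion against C14R the shares were 0 members and 0.058% at day 0 and 0 members and 0.029% at day 18. In these 6 comparisons, 0, 1, 2, 0, 5 and 2 members had an unadjusted p under 0.05, beside 2.81%, 6.22%, 11.1%, 11.4%, 9.84% and 11.2% of genes in the same order. Comparisons of the 2 variants with WT share the WT libraries.

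At day 0 the deletion libraries held the higher values for most members. Against WT, the log2 differences of 9 of 9 members were positive, with a median of 0.16 beside -0.0009 for all genes tested. The members were measured in the same libraries, so their signs are not independent. The differences of SMAD7 (0.02, SE 0.13), BAMBI (0.07, SE 0.12) and BMP7 (0.02, SE 0.08) were smaller than their SE. SMAD6 was the 1 member whose libraries did not overlap, with a log2 difference of 0.26 (SE 0.13, limma adjusted p = 0.801), where 8.68% of genes did not overlap in the higher direction. ID3 differed by 0.37 (SE 0.17, limma adjusted p = 0.801), with overlapping libraries. ID1 differed by 0.30, with a 95% interval from -0.11 to 0.71 that includes 0. Without deletion replicate 1 the median was 0.10 and 7 of 9 differences were positive, and SMAD7 and BAMBI were then the exceptions. Deletion replicate 1 held the highest of the 9 day 0 values for 7 members: ID1, ID2, ID3, ID4, SMAD6, BAMBI and GREM1. It is also 1 of the 4 day 0 libraries with a high SNORD3A share, whose part in these values was not tested.

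For C14R against WT at day 0, most log2 differences of members were negative, but all except those of ID1 and GREM1 were smaller than their SE. Of the 9, 1 was positive, SMAD7 at 0.09 (SE 0.13). The median was -0.08, or -0.17 to -0.05 with a library left out, beside -0.0025 for all genes tested. A library left out turned the sign of 5 members. Without WT replicate 1, 4 of 9 were positive, and likewise 4 without C14R replicate 3, the lowest day 0 library for ID1, ID3, BAMBI and GREM1. Both of these libraries had a high SNORD3A share, as had C14R replicate 1. The widest difference was that of ID1 at -0.27 (SE 0.20, limma adjusted p = 1), with a 95% interval from -0.68 to 0.14. It ran from -0.46 without C14R replicate 2 to -0.07 without C14R replicate 3. No member's C14R and WT libraries of day 0 were fully separated, against 9.47% of all genes in either direction.

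The deletion and C14R lines had the most separated members at day 0. The groups did not overlap for ID1 (0.57, SE 0.20, limma adjusted p = 0.352), SMAD6 (0.37, SE 0.13, 0.364), GREM1 (0.21, SE 0.07, 0.312) and ID4 (0.16, SE 0.10, 0.618), all higher in the deletion. This was 4 of 9 members, where 10.7% of all genes were separated in that direction. ID3 differed by 0.42 and ID2 by 0.26, with overlapping libraries. SMAD7, at -0.07, was the exception. Without C14R replicate 3 the ID1 difference was 0.38, and without C14R replicate 2 it was 0.76.

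The sum of the 12 mesenchymal-type markers differed between constructs at day 0. It was 1096, 1127 and 1102 FPKM in C14R, 1157, 1152 and 1146 in WT and 1289.6, 1241 and 1218 in the deletion, 3 ranges that did not overlap. Deletion replicate 1, the highest library for 7 members, also had the highest sum. VIM made up 48.7% to 50.2% of the mean sums, at 540 ± 19.7 FPKM in C14R, 565 ± 8.29 in WT and 627 ± 21.3 in the deletion. It was higher in the deletion than in C14R (log2 difference 0.22, SE 0.04, limma adjusted p = 0.0403), where 0.058% of all genes passed. That comparison was added after values were seen, and its count of 8 genes fell to 1 without C14R replicate 1 of day 0. The means of 6 of the 12 markers followed the order C14R, WT, deletion, and those of COL1A1, COL3A1, SNAI2, PRRX1, TWIST1 and YAP1 did not. The part of these markers in the members' values was not tested. The proliferation sum had another order, at 416 to 429 in C14R, 418 to 426 in WT and 391 to 402 in the deletion.

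At day 18 the separated members were GREM1, BAMBI and the ligands. GREM1 and BMP4 were far below 1 FPKM in all day 18 libraries, where values carry no counting interval. The SE of GREM1 rests on the spread at both days, including its much higher day 0 values. In C14R, BMP7 was above WT in 3 of 3 libraries (log2 difference 0.23, SE 0.08, limma adjusted p = 0.286), as was GREM1 (0.15, SE 0.07, 0.411), where 5.44% of genes were separated in the higher direction. BAMBI libraries were all below those of WT (-0.21, SE 0.12, limma adjusted p = 0.534), where 5.64% of genes were separated in the lower direction. BMP4, which was not tested, also had 3 C14R libraries above the 3 WT libraries, at 0.114 ± 0.0194 against 0.0456 ± 0.0175 FPKM. The shares of separated genes cover only genes that passed the filter, so none applies to BMP4, and its separation is a description. C14R replicate 1 of day 18, the library with the lowest SNORD3A share, was the highest for GREM1 and BMP7. Without it the differences from WT were 0.13 for GREM1 and 0.19 for BMP7.

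In the deletion at day 18, BMP7 was above WT in 3 of 3 libraries as well (0.17, SE 0.08, limma adjusted p = 0.445), where 10.4% of genes were separated in that direction. The sum of the 9 neuronal markers was also above WT in both variants at day 18, at 1810.1 to 1837 FPKM in WT, 1896 to 1986 in C14R and 1899 to 1971 in the deletion, and its part in the BMP7 values was not tested. By group means, 8 of the 9 markers were above WT in the deletion, all but RBFOX3, and 6 in C14R, where TUBB3 (243 against 244 FPKM), SYP (74.1 against 80.8) and RBFOX3 (0.183 against 0.225) were not. The sum of the 9 proliferation genes lay above WT too, at 143 to 151 FPKM in WT, 152 to 185 in C14R and 152 to 157 in the deletion. By group means, 9 of these 9 genes were above WT in C14R and 7 in the deletion, all but CDK1 and PLK1. The part of these genes was not tested either. GREM1 of the deletion was at 0.0647 ± 0.0592 against 0.0641 ± 0.0262 FPKM in WT, and the 95% interval of its log2 difference was -0.14 to 0.14. Against C14R, GREM1 of the deletion was lower (-0.15, SE 0.07, limma adjusted p = 0.442), with separated libraries, as for 5.94% of genes in that direction. ID1 differed by -0.42 between the deletion and C14R with overlapping libraries (SE 0.20, limma adjusted p = 0.446).

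**Figure D4:**
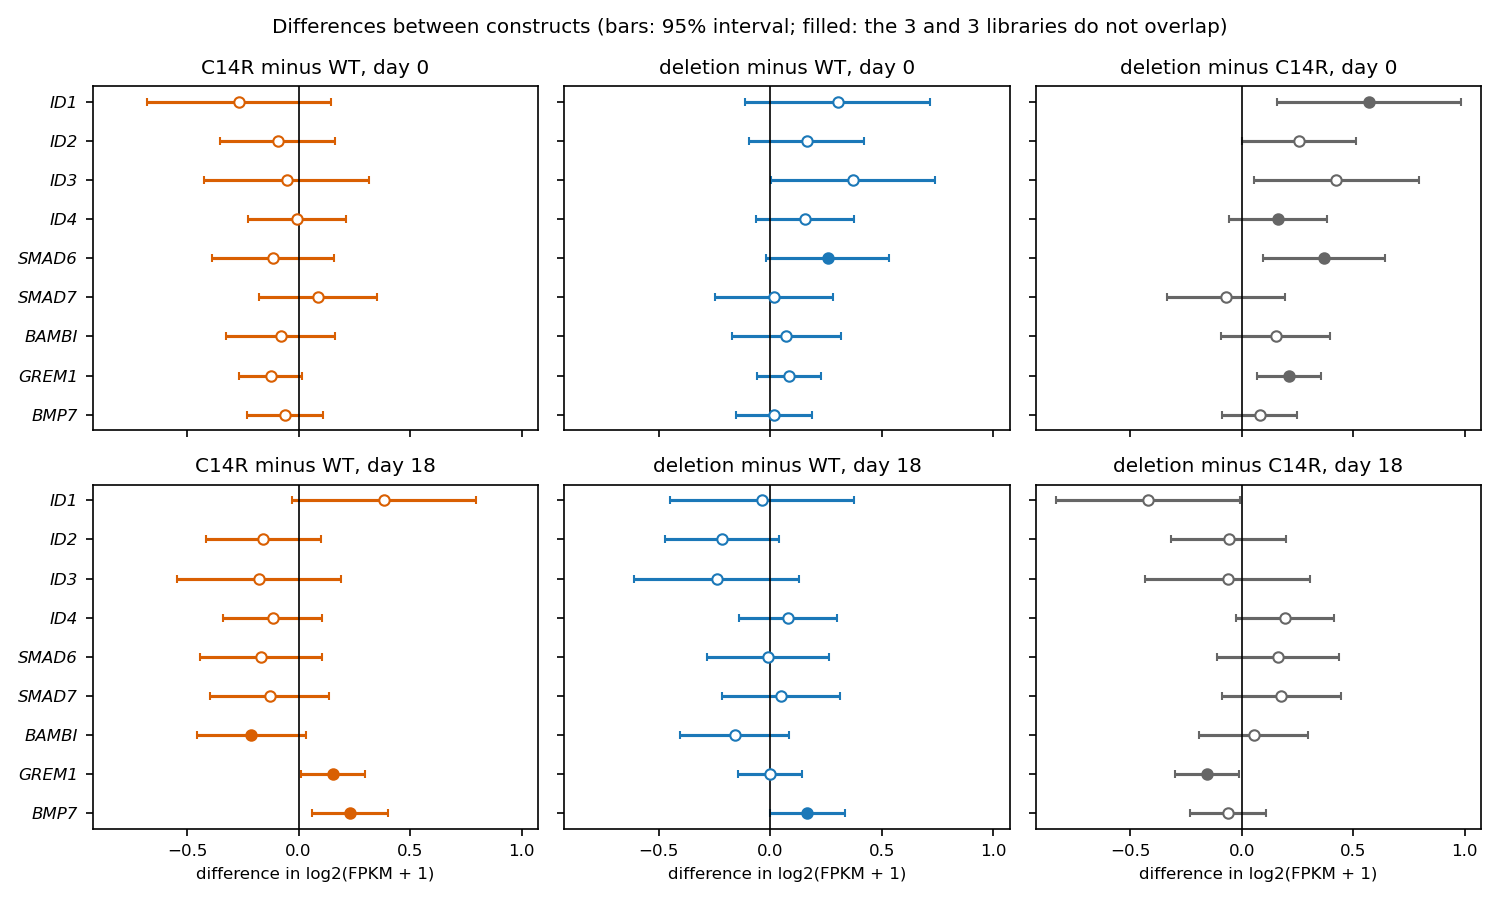
Difference in log2(FPKM + 1) between constructs on the horizontal axis, with 95% intervals from the linear model, for the 9 tested members at day 0 (upper row) and day 18 (lower row); filled points mark members whose 3 and 3 libraries do not overlap. No member has an adjusted p under 0.05 with limma. The deletion minus C14R panel of day 0 has the most filled points, 4 of 9, where 10.7% of all genes tested were separated in that direction. The deletion minus C14R comparison was added after values were seen.

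The size of the day difference was also set against WT in each variant. For C14R, 0 of 9 members and 0% of genes had an adjusted p under 0.05 with limma, and 3 members and 5.73% of genes an unadjusted p under 0.05. The 3 were ID1, whose day difference was less negative than in WT by 0.65 (SE 0.28, limma adjusted p = 0.848), GREM1, less negative by 0.28 (SE 0.10, 0.724), and BMP7, more positive by 0.29 (SE 0.11, 0.795). For the deletion, 0 of 9 members and 0.0145% of genes passed, and 2 members and 7.36% of genes had an unadjusted p under 0.05. Those 2 were ID3, with a day difference more negative than in WT (-0.61, SE 0.25, limma adjusted p = 0.608), and ID2 (-0.38, SE 0.17, 0.647). The 95% interval for ID4 in the deletion was -0.39 to 0.23, a narrower range than that of ID1, -0.92 to 0.24.

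Other genes of BMP and TGF-beta signalling were read from 9 lists, in which 61 of 92 genes passed the filter. Genes below 1 FPKM at 1 of the days, such as GDF10 and FST, passed it only through the other day. The lists were chosen with earlier results of these data known, so their p-values between days are descriptions. Between day 18 and day 0 in WT, 27 rose and 28 fell with limma (adjusted p under 0.05) and 6 did not pass, beside 38.2% of all genes that rose and 34% that fell. The counts were 29 and 26 in C14R, beside 37.9% and 35% of all genes, and 28 and 29 in the deletion, beside 38.6% and 34.4%. In the same direction in all 3 lines, 26 rose (33.3% of all genes did) and 26 fell (29.7%). The median log2 difference of the 61 was -0.03 in WT. Other genes of the pathway thus moved both ways. Between constructs and in the interactions, 0 of the 61 passed.

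Of the ligands, 4 of 6 rose in WT and 1 fell. GDF10 rose from 0.232 ± 0.198 to 35.7 ± 1.61 FPKM in WT, a log2 difference of 4.91 (SE 0.10). BMP8B rose by 0.73 and GDF11, which signals through activin receptors, by 0.49, while GDF6 fell by 1.39 to 0.0962 ± 0.0275 FPKM. Among the secreted antagonists, the class of GREM1, 4 of 7 rose and 3 fell. NBL1 rose from 6.60 ± 1.06 to 30.6 ± 3.59 FPKM (log2 difference 2.06, SE 0.15), CHRDL1 by 0.60 and FSTL3 by 0.53. FST, which binds activins, fell from 2.95 ± 0.0262 to 0.0119 ± 0.0207 FPKM and was listed at 0 in all day 18 libraries of C14R and the deletion. DAND5 fell by 1.07.

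Among the BMP receptors and co-receptors, 5 of 9 rose and 2 fell. The co-receptor RGMB rose from 10.5 ± 0.572 to 47.4 ± 2.08 FPKM (log2 difference 2.07, SE 0.06), the type II receptor BMPR2 by 0.70 and RGMA by 0.67. ENG, a co-receptor best known from endothelium, fell from 11.4 ± 1.07 to 2.78 ± 0.307 FPKM (-1.72, SE 0.12), and the type II receptor ACVR2B fell by 0.49. BMPR1A, a type I receptor for BMP4, was at 24.9 ± 0.365 and 24.8 ± 0.657 FPKM and did not pass (limma adjusted p = 0.931). The signal-carrying SMADs were all expressed at both days. SMAD9 fell from 35.1 ± 1.28 to 16.7 ± 0.256 FPKM (-1.03, SE 0.05), SMAD5 by 0.44 and SMAD3, of the TGF-beta branch, by 0.44. SMAD1 fell in WT (-0.41, limma adjusted p = 0.000451) and in the deletion (-0.30, 0.00616) but missed the threshold in C14R (-0.15, 0.143). SMAD2 rose by 0.36 and the shared partner SMAD4 by 0.15.

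In the TGF-beta branch, 3 of 5 ligands fell and 1 rose. TGFB2 fell from 11.0 ± 0.589 to 0.820 ± 0.196 FPKM (log2 difference -2.73, SE 0.10), TGFB3 by 1.35 and TGFB1 by 0.64, and the activin subunit INHBA rose by 0.98. Of 3 receptors, TGFBR1 rose by 0.62 and ACVR1B by 0.23, and TGFBR2 fell from 4.61 ± 0.316 to 0.989 ± 0.0745 FPKM (-1.50, SE 0.09). Among 10 ubiquitin ligases, co-repressors and attenuators, which act beside SMAD6 and SMAD7, 6 rose and 3 fell. The ubiquitin ligase NEDD4L rose by 1.24, the phosphatase PPM1A by 0.78 and the ligase SMURF1 by 0.48. The co-repressors TGIF2, TGIF1 and SKI fell by 1.39, 0.65 and 0.22.

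Of 7 further genes known to respond to BMP and SMAD signals, 6 fell and 1 rose, with a median log2 difference of -1.14 in WT. GATA2, a factor of sympathetic neuroblasts, fell from 98.8 ± 2.03 to 26.1 ± 0.963 FPKM (-1.88, SE 0.06), the homeobox gene DLX5 from 4.78 ± 0.471 to 0.299 ± 0.0914 (-2.15, SE 0.12) and MSX2 from 8.65 ± 1.13 to 2.40 ± 0.0381 (-1.50, SE 0.12). HEY1, also a Notch target, rose by 0.79. Of the basic helix-loop-helix factors that ID proteins act on, 5 of 8 fell and 2 rose. TWIST1, also among the mesenchymal-type markers, fell by 1.05 and HAND1 by 0.43. The E proteins, direct partners of ID proteins, moved both ways. TCF4 rose from 105 ± 2.85 to 145 ± 2.66 FPKM (0.46, SE 0.04). TCF3 (-0.32, SE 0.06) and TCF12 (-0.39, SE 0.05) fell in WT, and both also fell in the other lines. NEUROG2 rose from 0.230 ± 0.144 to 2.54 ± 0.210 FPKM (1.53, SE 0.20).

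**Figure D5:**
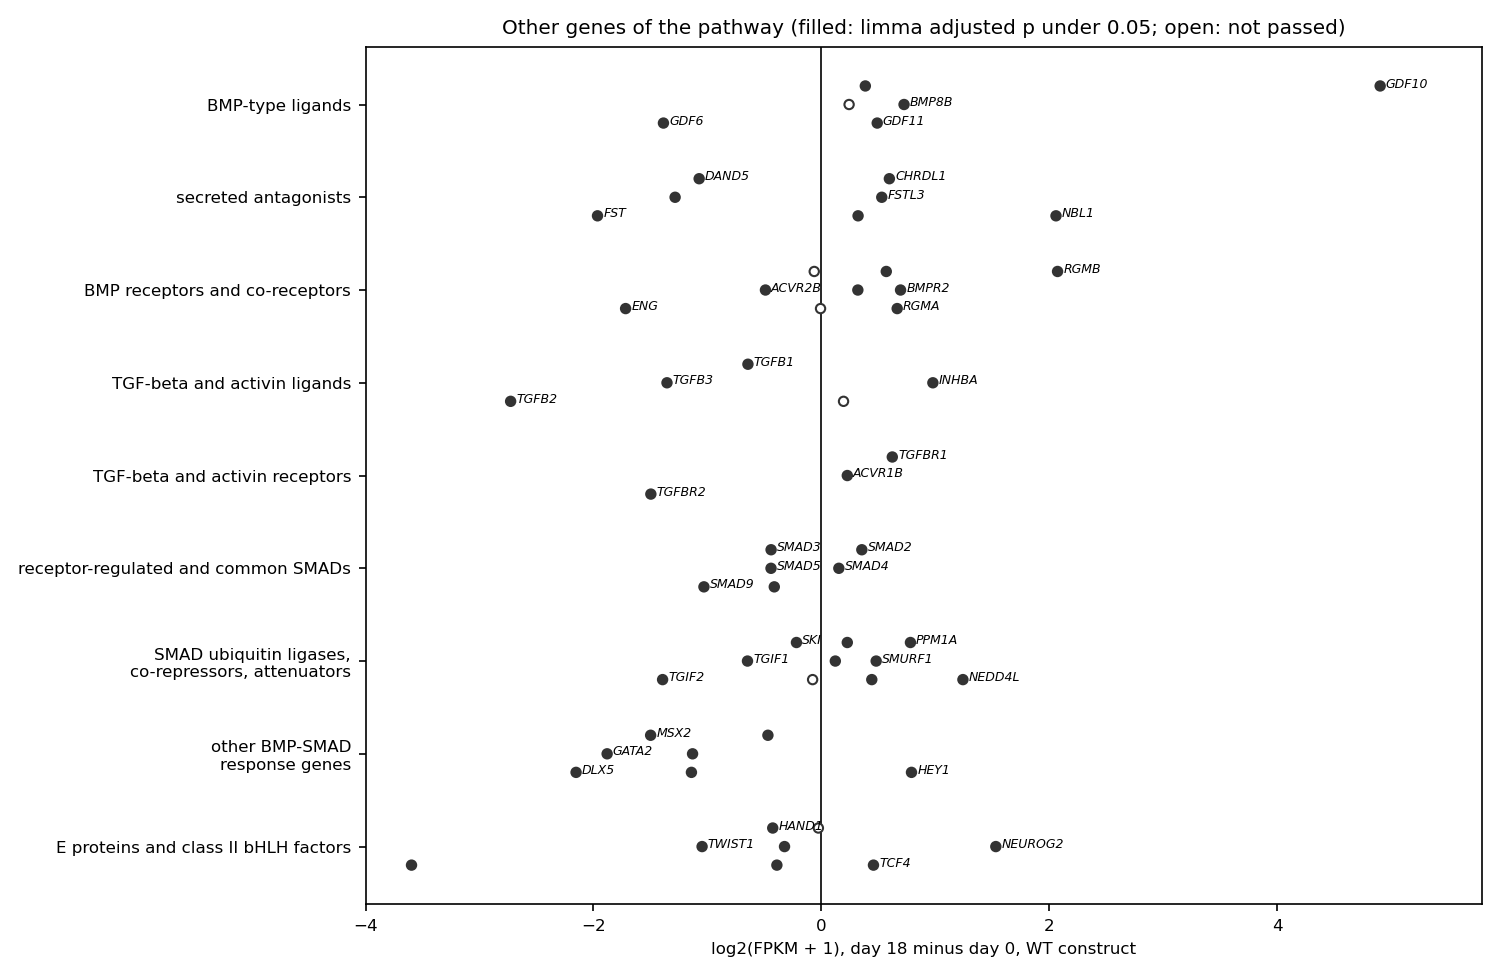
Difference in log2(FPKM + 1), day 18 minus day 0 in WT, on the horizontal axis for the 61 pathway genes that passed the filter, in 9 lists on the vertical axis; filled points have a limma adjusted p under 0.05 and open points do not. Points lie on both sides of 0 in each list, and GDF10, at 4.91, is the farthest to the right. Labels mark genes named in the text.

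The profile of each tested member over the 18 libraries was compared with every other gene tested, as the root mean square difference of log2(FPKM + 1) values centred on their mean. This likeness is set almost wholly by the difference between days and is a description. The nearest profiles to ID1 were those of ANKRD1 (0.24), ACTG2 (0.26) and PRSS23 (0.30), and to ID2 those of CRIM1, CYR61 (0.13 each) and THBS1 (0.14). ID3 was nearest to IGFBP3 (0.18), MMP1 (0.22) and FN1 (0.23), the last a mesenchymal-type marker. ID4 was nearest to TGFB2 (0.12), KCTD12 (0.12) and TPM1 (0.13). Among the nearest to GREM1 were S100A10 (0.25) and TAGLN (0.27). BAMBI was nearest to PTRF (0.12), THBS1 (0.13) and MSN (0.15), SMAD6 to HR, TBX2 and FAS (0.14 each), and SMAD7 to SAPCD2 (0.12), HIST1H2BG and FHL2 (0.13 each). BMP7 was nearest to TANC2, NEFL (0.08 each) and SNAP25 (0.09), 2 of them on the neuronal marker list. Between members, ID2 and BAMBI were closest at 0.17, and 10 genes were nearer to ID2 than BAMBI was. ID1 and ID3 were 0.43 apart.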

How the data were processed

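The authors deposited 1 table of FPKM values, fragments scaled to transcript length and mapped fragments, per gene symbol and library. The unit comes from the name of the deposited file. TopHat2, STAR, Cufflinks 2.2.1 and build hg38 are named in the submitters' processing notes, with no role or order. Per the labels' protocols, ribosomal RNA was depleted before library preparation. Groups came from sample names.

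Values were used as log2(FPKM + 1), which understates differences of low genes. Genes with a mean of at least 1 FPKM were fitted with limma 3.58.1 (R 4.3.3) to 6 group means over 18 libraries, with a variance trend and Benjamini-Hochberg adjustment over 13785 genes per comparison. The comparison of the deletion with C14R was added after values were seen. Tested on simulated data for C14R against WT at day 18 (13785 genes, 200 changed), the fit recovered 92% of 1.5-fold and 98% of 2-fold changes. The changed genes were drawn only from genes with day 18 levels above those of ID1, ID3, ID4, SMAD6, SMAD7, BAMBI, GREM1 and BMP7. Changes were set on the log2(FPKM + 1) scale, so these shares do not apply to those members at day 18.

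The members, gene lists and markers were chosen with earlier results of these data known. The pathway genes named were up to 3 rises and 3 falls per list that passed in all 3 lines, largest in WT. BMPR1A, SMAD1, TCF3 and TCF12 were added after their values were seen. Some genes that the rules selected are not reported here. Alternatives were another pseudocount, other filters, median-of-ratios scaling, quantile normalization, fewer libraries, a replicate block, no trend, and each library left out.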

Additional observations from a re-analysis of the deposited data

How the results depend on the processing

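With limma, 0 members passed in the 6 construct comparisons and 2 interactions under every alternative run, but a mean of at least 5 FPKM left 6 members to test, without SMAD6, SMAD7 and BMP7. Alternatives were followed for 28 member differences, those with an unadjusted p under 0.05, separated groups or the most extreme value of a comparison. Of 424, 419 kept their sign, and the smallest adjusted p was 0.132, for BMP7 in C14R against WT at day 18 without C14R replicate 2. The others concerned SMAD7. Among all 9 members, a library left out turned the sign of 5 for C14R against WT at day 0 (ID2, ID3, ID4, SMAD6, BAMBI), 2 for the deletion against WT at day 0 (SMAD7, BAMBI) and 4 at day 18 (ID1, SMAD6, SMAD7, GREM1), and, for the deletion against C14R, 1 at day 0 (SMAD7) and 3 at day 18 (ID2, ID3, BAMBI). Against WT at day 0 the deletion difference of SMAD7, 0.02, ran from -0.053 to 0.126 with single libraries left out (-0.029 without WT replicate 2, -0.042 without WT replicate 3, -0.053 without deletion replicate 1, -0.0087 without deletion replicate 3). Against C14R it turned from -0.07 to 0.028 without deletion replicate 2 and ran from -0.14 to 0.028. All 369 alternatives to the 27 member day differences kept their sign, and 26 moved by more than the spread, all with a pseudocount of 0.1: in WT, GREM1 to -8.09, ID1 to -5.72, SMAD6 to -3.29 and BMP7 to 2.80. Counts of pathway genes stayed within 1.5 times.

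Counts of all genes that passed were small and moved. For C14R against WT at day 0 the count of 0 became 1 with a pseudocount of 0.1, quantile normalization or only the libraries compared (0 to 1 with a library left out). For the deletion against WT at day 0, 4 became 2 without a filter and 1 with a mean of at least 5 (2 to 5). For C14R against WT at day 18, 5 became 10 without a filter and 2 with only the libraries compared (4 to 125, the highest without C14R replicate 2). For the deletion against WT at day 18, 10 became 23 with a pseudocount of 0.1, 16 without a filter, 6 with a mean of at least 5, 26 with quantile normalization and 2 with only the libraries compared (2 to 51, the highest without C14R replicate 1). For the deletion against C14R, 8 at day 0 ran from 1 to 12, and 4 at day 18 became 13 without a filter and 2 with a mean of at least 5. The C14R interaction went from 0 to 1 with a pseudocount of 0.1 (0 to 2), and the deletion interaction from 2 to 1 with a mean of at least 5 and 5 with only the libraries compared. The cause was not tested.

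With the replicate number as a block, the deletion against WT at day 18 gave 6 genes and the C14R interaction 1. The numbers did not pair the libraries: over 45 same-numbered pairs the correlation of deviations ran from -0.363 to 0.168, 6 were over 0.1, and 2 of 18 libraries correlated best with their own number. No depth in reads is known, so levels below about 1 FPKM carry no counting interval.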
